A study of Mus musculus with 12 samples.

Results

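The Steap family comprises Steap1, Steap2, Steap3 and Steap4, and all 4 genes were measured on arrays of embryonic mouse brain. They were taken by gene symbol, as every probe set (the group of short probes that gives one value per transcript) assigned in the platform table to a single gene of that name. This gave 9 of 45037 probe sets and 4 of 17097 genes, with 2 probe sets for Steap1, 4 for Steap2, 1 for Steap3 and 2 for Steap4. The family was chosen by the measured differences of Steap1 and Steap2 from control in both experiments, so these differences are a description and carry no test.

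Steap proteins are membrane proteins with a haem-binding transmembrane core, and most of them pass electrons from NADPH inside the cell to ferric iron or cupric copper on the other side of the membrane. Steap3 is the reductase of the transferrin cycle, which prepares iron for export from the endosome in developing red cells. Steap2 and Steap4 reduce iron and copper as well, and Steap4 is known from adipose and inflamed tissue. Steap1 has the transmembrane core but lacks the NADPH-binding domain of the other members, and is best known as a cell-surface antigen of prostate tumours.

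There were 12 arrays in 4 groups of 3, from mice of mixed background. For the YAP experiment, embryos of genotype TetO-YAP1;Nes-rtTA (YAP overexpression) carried a doxycycline-dependent YAP1-S127A allele and a transactivator driven by the Nestin promoter of neural progenitors, and Nes-rtTA embryos (YAP control) carried the transactivator alone. Forebrain and midbrain were collected together at E11.5, with doxycycline in the dam's food at 200 mg/kg from E7.5. For the Nf2 experiment, dorsal telencephalon was collected at E13.5 from Nf2F/F;Emx1-Cre embryos (Nf2 knockout) and from Nf2F/+;Emx1-Cre embryos (Nf2 control), so both groups carried the telencephalic Cre and the controls had already lost 1 copy of Nf2 in Cre-expressing cells. YAP is a transcriptional co-activator that binds DNA through TEAD factors, and Nf2 encodes Merlin, an upstream activator of the Hippo kinases that restrain YAP.

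The labels do not say that the arrays of a group came from separate embryos, so errors and p-values cover only the scatter among the arrays at hand, part or all of which may be technical. All values are log2 intensities. The median of an array lay between 5.03 and 5.1 in the YAP experiment and between 4.3 and 4.42 in the Nf2 experiment, and levels were compared only within an experiment. In the YAP arrays the forebrain genes Lhx2 and Emx2 and the midbrain genes Otx2 and En2 were bright, each above at least 85.3% of the probe sets of an array. The forebrain gene Emx1 (log2 4.79 to 5.76) and the midbrain gene Pax7 (4.47 to 5.14) were dimmer, and the probe set of the midbrain gene En1 lay near the bottom (3.81 to 4.40). In the dorsal telencephalon En1, En2 and Pax7 stayed at 3.29 or below but Otx2 read 8.25 to 8.50, while Lhx2 read at least 11.78 and Emx1 at least 7.11. Otx2 is also a choroid plexus marker. The other choroid plexus markers there read 12.43 to 12.71 (Ttr), 9.07 to 9.44 (Clic6), 8.78 to 9.26 (Kcne2) and 7.08 to 7.72 (Folr1). The source of the Otx2 signal was not tested. The YAP-responsive gene Ccn2, which encodes a secreted matrix-associated protein, rose by 2.50 (SE 0.22, limma adjusted p = 7.1e-05) with YAP overexpression and by 2.03 (SE 0.22, limma adjusted p = 0.00165) in Nf2 knockouts. Ccn1, a related YAP-responsive gene, rose by 1.93 and 1.02 (limma adjusted p = 1.89e-06 and 0.00165). The manipulated genes Yap1 (0.27, adjusted p = 0.0551, YAP experiment) and Nf2 (-0.38, adjusted p = 0.246, Nf2 experiment) did not pass limma's test. Yap1 passed it after median centring (0.30, adjusted p = 0.0287), after quantile normalization (0.28, adjusted p = 0.0434), with dim genes left out (adjusted p = 0.0269) and without overexpression replicate 2 (adjusted p = 0.0487). Whether the Yap1 and Nf2 probe sets read the introduced YAP1 allele or the deleted part of Nf2 was not tested. Their values are therefore no measure of how well the manipulations worked. In whole tissue, fewer cells of a type and less RNA per cell cannot be told apart.

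Steap1 and Steap2 adjoin each other on chromosome 5 and are read from the same strand. The 250 bases before the annotated start of Steap1 (chr5:5749318-5749567) and the 169 bases just outside the Steap2 gene (chr5:5694650-5694818) are shown because these are the 2 members whose values differed between the groups. Both come from RefSeq, build GRCm38.p6, minus strand, and capitals mark CpG dinucleotides.
Steap1: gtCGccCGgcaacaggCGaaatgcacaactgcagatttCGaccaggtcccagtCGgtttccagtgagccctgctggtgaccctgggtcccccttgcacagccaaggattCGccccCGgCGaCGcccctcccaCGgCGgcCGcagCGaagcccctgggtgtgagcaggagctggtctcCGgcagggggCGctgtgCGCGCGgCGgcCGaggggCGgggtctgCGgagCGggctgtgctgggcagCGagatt
Steap2: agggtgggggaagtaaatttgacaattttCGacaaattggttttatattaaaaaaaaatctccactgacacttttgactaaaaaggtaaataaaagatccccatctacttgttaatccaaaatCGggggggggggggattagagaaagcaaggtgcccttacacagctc

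The Steap1 stretch held 24 CpG dinucleotides and was 70.8% G or C, and the Steap2 stretch held 2 and was 39.1% G or C. That contrast belongs to these stretches: the windows of 300 bases at the 3 Steap2 starts held 10, 16 and 39 CpG dinucleotides (up to 74.3% G or C, in the third), and the Steap1 window held 33 (72.3%). The whole windows tabulated for the 4 genes, each of 300 bases around a start (250 before it and 50 after), were then searched on both strands for GGAATG, the core letters that TEAD factors bind, and for TGANTCA, the letters bound by AP-1. Among the 9 windows of the family (1 for Steap1, 3 for Steap2, 4 for Steap3 and 1 for Steap4), GGAATG or its complement was found in 1 and TGANTCA in 0. The match belonged to the second of the 3 Steap2 starts and began 113 bases before it (chr5:5694422-5694451, minus strand), as shown here with the matching letters in capitals.
Steap2 match: ggcatttctgatCATTCCctttcaaggaca

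Over all 32851 windows of this length, 14.7% held GGAATG and 7.81% held TGANTCA. A match describes the letters of a window and not binding, and the absence of one says only that these letters are not in that window.

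Steap1 was the member with the largest difference in both experiments. On its brighter probe set, 1451532_PM_s_at, the YAP overexpression arrays read 8.57, 8.52 and 8.04, and the YAP control arrays read 5.20, 5.59 and 5.26. The lowest overexpression array stood 2.45 above the highest control, and the means were 8.38 (SD 0.29, n = 3) and 5.35 (SD 0.21, n = 3). The log2 difference was 3.03 (SE 0.16), or 8.15-fold. It ranked 2 of 17097 genes from the highest.

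For Nf2 the same probe set read 6.96, 7.03 and 7.14 in knockouts and 5.29, 4.85 and 4.76 in controls. All knockouts again lay above all controls, by at least 1.67, and the knockout arrays were the closer together (SD 0.09 against 0.28, n = 3 each). The difference was 2.08 (SE 0.16), or 4.22-fold, and it too ranked 2 of 17097. The YAP difference exceeded the Nf2 difference by 0.95 (SE 0.23) on this probe set. The experiments differed in tissue, age and array medians, which the SE of this or any later YAP minus Nf2 difference does not cover.

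The dimmer Steap1 probe set, 1424938_PM_at, did not show that gap between the experiments. It read 6.64, 7.17 and 5.73 with YAP overexpression and 4.91, 4.57 and 4.28 in YAP controls, a difference of 1.93 (SE 0.28). Overexpression replicate 3 was the lowest of its group on both Steap1 probe sets, and on this one the group was spread widely (SD 0.73, n = 3). Among the Nf2 arrays it read 5.73, 5.75 and 6.04 in knockouts against 3.70, 3.97 and 3.62 in controls, a difference of 2.08 (SE 0.28). Both probe sets therefore gave a 4.22-fold difference for Nf2 knockout, but 8.15-fold and 3.8-fold for YAP overexpression.

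**Figure D1:**
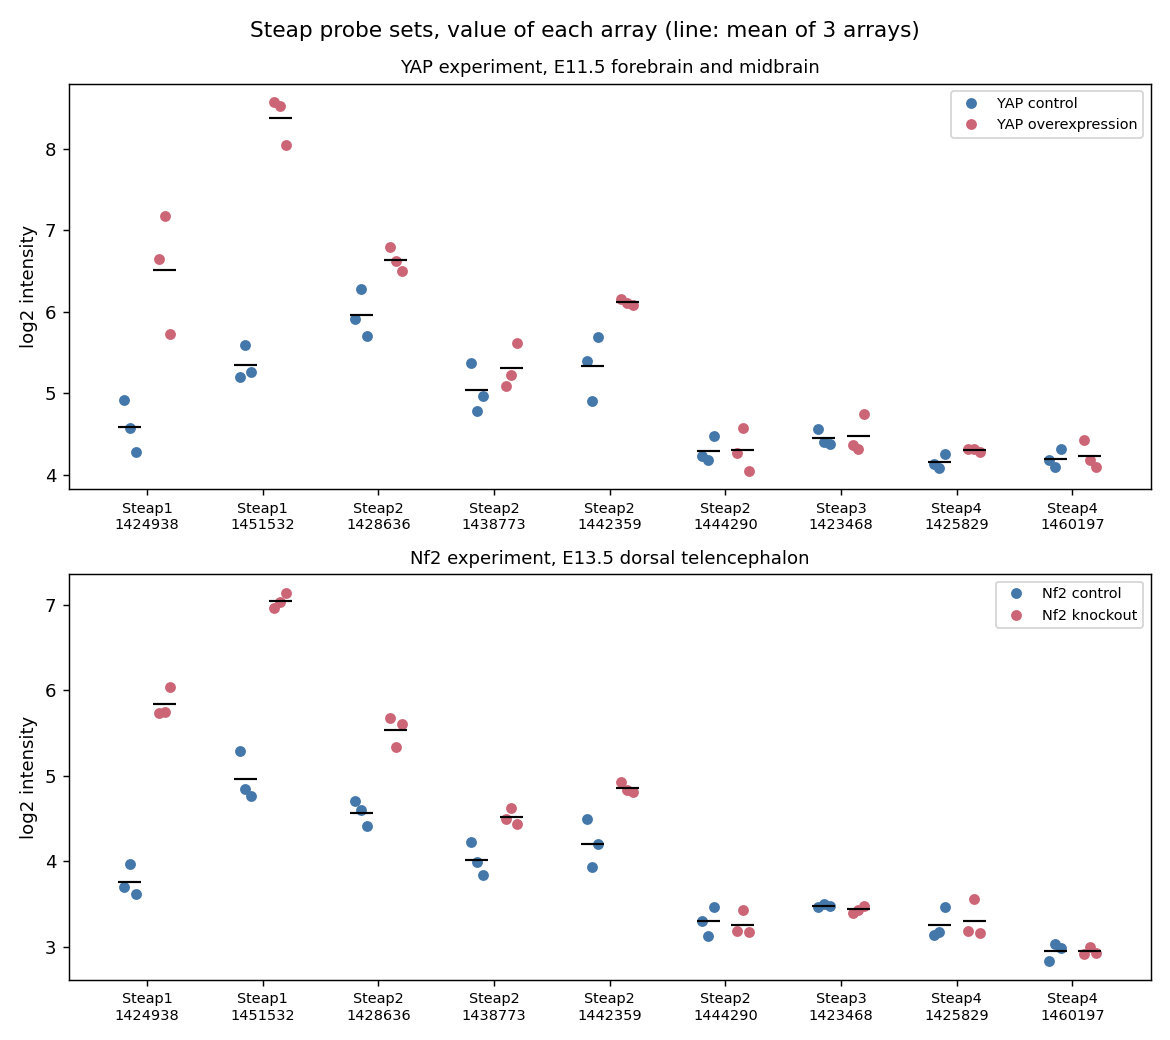
Log2 intensity (vertical axis) of each of the 9 Steap probe sets (horizontal axis, gene and first part of the probe set name) in every array, with YAP arrays in the upper and Nf2 arrays in the lower panel; dots are arrays, blue for controls and red for YAP overexpression or Nf2 knockout, and black lines are means of 3. Both Steap1 probe sets and 2 (YAP) or 3 (Nf2) of 4 Steap2 probe sets separate the groups, while the Steap3 probe set and 1460197_PM_a_at of Steap4 overlap in both panels.

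Steap2, the adjoining metalloreductase gene, differed in the same direction and by less. On 1428636_PM_at, its brightest probe set, the YAP overexpression arrays read 6.79, 6.62 and 6.50 and the controls 5.91, 6.28 and 5.70. The groups were separated by only 0.22, with control replicate 2 nearest to the overexpression arrays. The difference was 0.67 (SE 0.14), or 1.59-fold, and ranked 149 of 17097. In Nf2 knockouts the probe set read 5.68, 5.34 and 5.60, against 4.70, 4.60 and 4.41 in controls. The gap was wider here, at 0.64, and the difference was 0.97 (SE 0.14), or 1.96-fold, ranking 16 of 17097. The YAP minus the Nf2 difference was -0.30 (SE 0.20) on this probe set.

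The other Steap2 probe sets varied. On 1442359_PM_at the overexpression arrays lay close together at 6.15, 6.11 and 6.08 above controls at 5.40, 4.90 and 5.69, a difference of 0.78 (SE 0.17). The Nf2 knockouts read 4.93, 4.83 and 4.81 there and the controls 4.49, 3.93 and 4.20, a difference of 0.65 (SE 0.17). On 1438773_PM_at the YAP groups overlapped, with 5.09, 5.22 and 5.61 against 5.37, 4.78 and 4.96 (0.27, SE 0.16), whereas the Nf2 groups did not, with 4.49, 4.62 and 4.44 against 4.22, 3.99 and 3.84 (0.50, SE 0.16). The fourth, 1444290_PM_at, overlapped in both experiments and differed by 0.00 (SE 0.14) and -0.04 (SE 0.14). It was also the dimmest of the 4, never above more than 37.3% of the probe sets of an array.

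**Figure D2:**
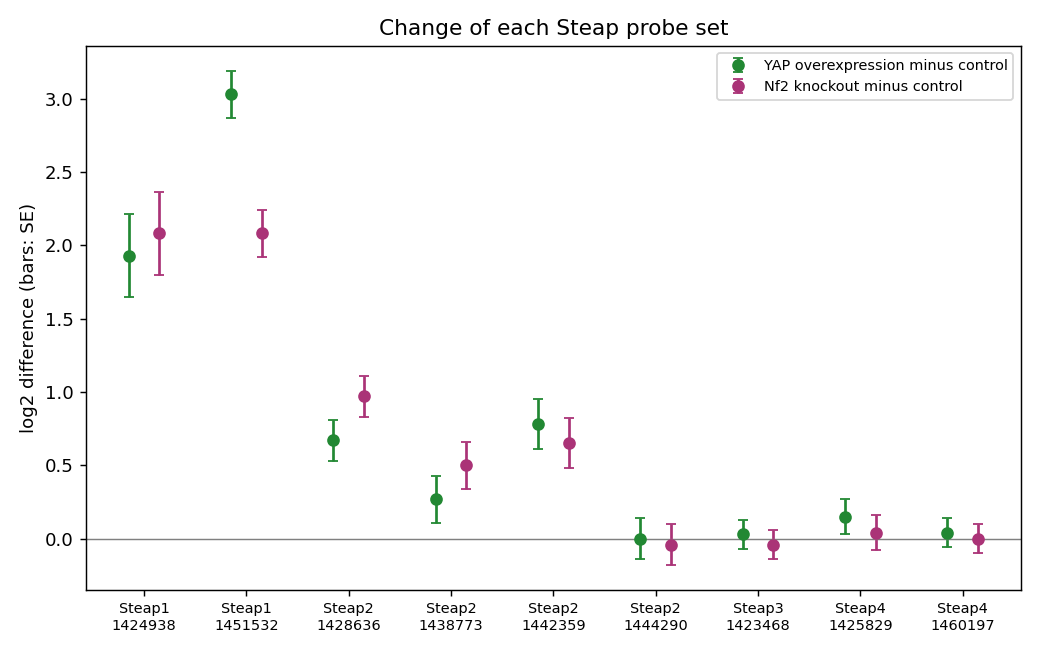
Log2 difference from control (vertical axis) of each Steap probe set (horizontal axis), with YAP overexpression in green and Nf2 knockout in purple; dots are differences of 3 arrays against 3 and bars are standard errors from the limma fit to all single-gene probe sets. The 2 Steap1 probe sets agree for Nf2 (2.08 each) and differ for YAP (1.93 and 3.03), 3 Steap2 probe sets lie between 0.27 and 0.97, and the Steap3 and Steap4 probe sets lie between -0.04 and 0.15.

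Steap3, the endosomal ferrireductase gene, did not separate the groups. Its single probe set read 4.37, 4.32 and 4.75 with YAP overexpression and 4.56, 4.40 and 4.38 in controls, a difference of 0.03 (SE 0.10). Only overexpression replicate 3 stood above the controls. In the Nf2 experiment it read 3.40, 3.43 and 3.48 against 3.46, 3.50 and 3.48, a difference of -0.04 (SE 0.10), with the groups overlapping.

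Steap4, the member known from inflamed tissue, was dim on both probe sets. On 1425829_PM_a_at the YAP overexpression arrays read 4.31, 4.31 and 4.28 and the controls 4.13, 4.08 and 4.25, so the groups were apart by 0.03, for a difference of 0.15 (SE 0.12). Its other probe set, 1460197_PM_a_at, overlapped there, with 4.42, 4.18 and 4.10 against 4.18, 4.09 and 4.32 (0.04, SE 0.10). In the Nf2 experiment the first read 3.18, 3.56 and 3.16 in knockouts and 3.14, 3.17 and 3.47 in controls (0.04, SE 0.12), and the second differed by 0.00 (SE 0.10). The Steap3 probe set was above 23.6% to 44% of the probe sets of an array in the YAP experiment, and the 2 Steap4 probe sets above 8.12% to 28.2%.

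Limma's fit over all genes called 2 of the 4 Steap genes higher and 0 lower with YAP overexpression, against 2.67% of all genes called higher, 3.64% lower and 6.31% in either direction. In the Nf2 comparison it likewise called Steap1 and Steap2, against 0.205% of all genes called higher, 0.0468% lower and 0.252% in either direction. With same-numbered arrays as a block in both experiments at once, 21 genes in place of 43 were called for Nf2. Both Steap genes were still among them. By probe set, 5 of 9 had all overexpression arrays above all controls (8.69% of all 28898 single-gene probe sets) and 5 of 9 had all knockouts above all controls (5.96%), and 0 of 9 showed the opposite order. Of the 9, limma called 4 higher for YAP (1.84% of all) and 3 for Nf2 (0.145% of all). By gene, arrays did not overlap for 9.72% higher (21.3% in either direction) with YAP overexpression, and for 6.6% higher and 6.09% lower (12.7% in either direction) in Nf2 knockouts. The share of higher genes among those called for YAP was 42.3%, and 52.8% after median centring of the arrays. These counts restate the values on which the family was chosen. The median change of the 4 genes was 0.41 for YAP and 0.51 for Nf2, beside -0.01 and 0.00 over all genes.

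Steap1 was called in all 13 alternative settings tried in each experiment, and Steap2 in 9 of 13 in each. These calls reuse the values on which the family was chosen, so they show dependence on the settings and are no separate test. For YAP overexpression, Steap2 was not called without YAP control replicate 1 (0.65), control replicate 3 (0.54) or overexpression replicate 1 (0.60), nor when only the 6 YAP arrays were fitted. For Nf2 knockout it was not called without Nf2 control replicate 2 (0.99), control replicate 3 (0.89), knockout replicate 1 (0.90) or knockout replicate 3 (0.94).

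The log2 value of Steap1 minus that of Steap2 in the same array gives how unequally both genes changed. It was 1.78, 1.90 and 1.54 with YAP overexpression and -0.71, -0.69 and -0.44 in YAP controls. In the Nf2 experiment it was 1.28, 1.69 and 1.54 in knockouts and 0.59, 0.25 and 0.35 in controls. The groups were apart in both experiments, so the difference of Steap1 exceeded that of Steap2 in each. The zero of this scale has no meaning, since the 2 probe sets differ in brightness.

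To see whether the chromosomal neighbourhood differed as well, all measured genes whose start lies within 1 Mb of Steap1, Steap3 or Steap4 were read from the same fit. Of 6 such neighbours of Steap1 and Steap2, 1 rose with YAP overexpression and 1 rose in Nf2 knockouts, and none fell, beside 2.67% higher and 3.64% lower over all genes for YAP and 0.205% and 0.0468% for Nf2. In both cases it was Cldn12, which encodes a claudin of cell contacts and lies on the Fzd1 side of Steap2, with Gtpbp10 and Cfap69 among the genes between. Cldn12 read 10.63, 10.89 and 10.46 with YAP overexpression and 9.44, 9.41 and 9.24 in controls. It rose 2.46-fold (log2 1.30, SE 0.11, limma adjusted p = 3.21e-05), in 3 of 3 arrays. In the Nf2 experiment it read 9.78, 9.61 and 9.72 in knockouts and 8.84, 8.68 and 8.71 in controls, and rose 1.95-fold (log2 0.96, SE 0.11, limma adjusted p = 0.00165).

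The second probe set of Cldn12 gave 1.31 (SE 0.14) and 1.05 (SE 0.14), and the gene was called in 13 of 13 alternative settings in each experiment (adjusted p from 1.46e-05 to 0.00299 for YAP and from 0.000936 to 0.0168 for Nf2). The difference between its YAP and Nf2 changes, 0.34 (SE 0.15), did not pass limma's test (adjusted p = 0.479). Neither motif was found in the 3 windows of Cldn12. The measured genes between Cldn12 and Steap2 were not called. Gtpbp10, named for a GTP-binding protein, differed by 0.17 (adjusted p = 0.323) for YAP and 0.19 (adjusted p = 0.819) for Nf2. Cfap69, named for a protein of cilia and flagella, differed by 0.20 (adjusted p = 0.669) and 0.28 (adjusted p = 0.922). On the far side of Cldn12, the Wnt receptor gene Fzd1, the kinase gene Cdk14 and Pttg1ip2 ranged from -0.23 to 0.19 over both experiments. The median change of the 6 neighbours was 0.13 for YAP and 0.19 for Nf2, beside -0.01 and 0.00 over all genes.

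**Figure D3:**
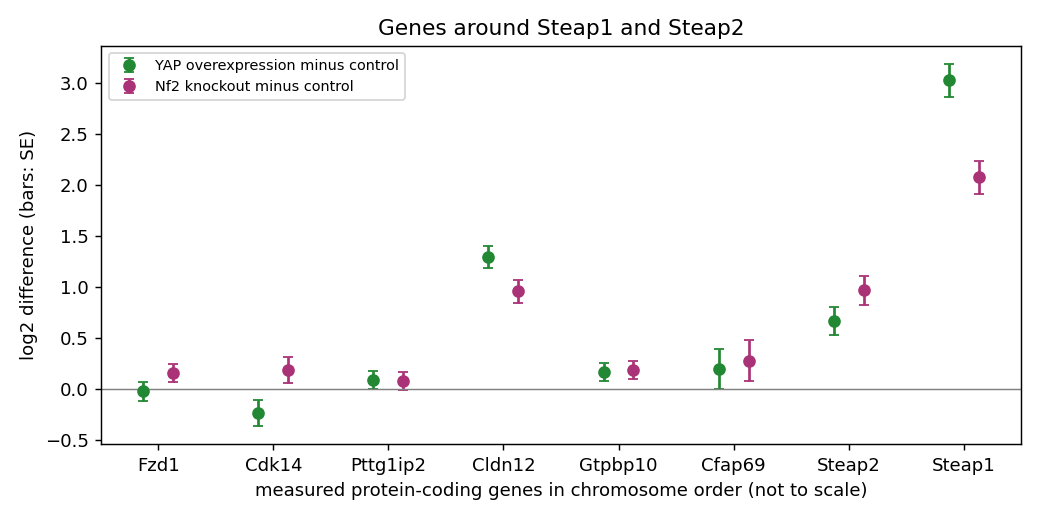
Log2 difference from control (vertical axis) of the measured protein-coding genes around Steap1 and Steap2, in chromosome order and not to scale (horizontal axis), with YAP overexpression in green and Nf2 knockout in purple; dots are differences of 3 arrays against 3 and bars are standard errors. Cldn12 (1.30 and 0.96), Steap2 (0.67 and 0.97) and Steap1 (3.03 and 2.08) stand above the other 5 genes, which lie between -0.23 and 0.28.

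The neighbours of the 2 dim members were read in the same way. Over all genes limma called 2.67% higher and 3.64% lower for YAP, and 0.205% and 0.0468% for Nf2. Its unadjusted p was under 0.05 for 3353 (YAP) and 1066 (Nf2) of 17097 genes. At these shares, few or 0 calls in lists this short say little about a neighbourhood. Of 13 measured neighbours of Steap3, 0 were called by limma in either experiment (unadjusted p under 0.05 for 1 and 0), with differences from -0.15 to 0.24. The farthest from 0 were Epb41l5 and Marco for YAP (0.24 and 0.17) and Tmem37 and 2610027F03Rik for Nf2 (0.21 and -0.15). Of 9 neighbours of Steap4, which also lies on chromosome 5, limma called 0 higher and 1 lower for YAP, and 0 for Nf2 (unadjusted p under 0.05 for 2). Dbf4 was next for YAP (0.23, limma adjusted p = 0.163), and Abcb1a and Tex47 were farthest from 0 for Nf2 (-0.27 and -0.26). The gene that fell was Rundc3b, at 8.73, 8.82 and 8.62 against 9.01, 9.05 and 9.44 (-0.44, SE 0.10, limma adjusted p = 0.0265). It was no longer called without YAP control replicate 3 (-0.31), overexpression replicate 1 (-0.45) or overexpression replicate 3 (-0.39), nor with only the 6 YAP arrays (adjusted p = 0.129) or with the replicate block (adjusted p = 0.084), with adjusted p from 0.0174 to 0.129 over its alternatives.

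The genes whose values over the 12 arrays were most like those of Steap1 were found by the root mean square difference, after subtracting from each array the mean of its experiment's controls. The 8 nearest were, in this order, Ccn2, Pkp2, Clu, Ccn1, Ajuba, Pdlim1, Dusp3 and Fgfbp3. Their difference from Steap1 ran from 0.353 for Ccn2 to 0.998 for Fgfbp3, against a median of 1.85 over all genes. Cldn12 came 11th in this order (1.04), Steap2 came 37th (1.31), and Steap4 and Steap3 fell at positions 3087 and 8613. Because the measure keeps the size of a change, it favours genes with large changes. For the genes named by this order, p-values come from the same arrays that ordered them and are no separate test.

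Ccn2 was the nearest gene to the brighter Steap1 probe set, but stood lower than it in every YAP overexpression array. Its overexpression arrays stood 2.69, 2.52 and 2.31 above the YAP control mean, beside 3.22, 3.17 and 2.69 for Steap1, and its knockouts stood 2.26, 1.94 and 1.89 above the Nf2 control mean, beside 1.99, 2.06 and 2.17. Pkp2, a plakophilin gene of cell junctions, followed Steap1 in the YAP arrays (2.70, SE 0.11) and was lower than it in the Nf2 arrays (1.26, SE 0.11). With _x_at and _s_at probe sets left out, Pkp2 was not called (0.14, adjusted p = 0.536, and 0.01, adjusted p = 0.994). Clu, the gene of a secreted chaperone, exceeded Steap1 for YAP (3.60, SE 0.21) and was not called for Nf2 (0.95, adjusted p = 0.146), except with only the 6 Nf2 arrays (adjusted p = 0.0304). Pdlim1, which encodes an actin-associated PDZ and LIM protein, rose by 1.60 (SE 0.11, limma adjusted p = 6.87e-06) and 1.11 (SE 0.11, limma adjusted p = 0.000941). Fgfbp3, which encodes an FGF-binding protein, rose by 1.31 and 1.15 (limma adjusted p = 0.000837 and 0.0114), but with the replicate block its Nf2 difference was not called (limma adjusted p = 0.0769), nor without Nf2 control replicate 2 (1.16) or 3 (1.10) or knockout replicate 2 (1.15) or 3 (1.11). Ajuba, the gene of a LIM-domain scaffold, rose by 1.86 and 0.92 (limma adjusted p = 3.21e-05 and 0.0269), and its Nf2 call was lost without Nf2 control replicate 2 (0.93) or 3 (0.77) or knockout replicate 1 (0.81) or 2 (0.94), and with only the 6 Nf2 arrays (adjusted p = 0.18). Dusp3, a phosphatase gene, rose by 1.98 and 0.59 (limma adjusted p = 1.12e-07 and 0.00782), and its Nf2 call was lost without knockout replicate 2 (0.57) and with the mean over its probe sets (0.26).

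**Figure D4:**
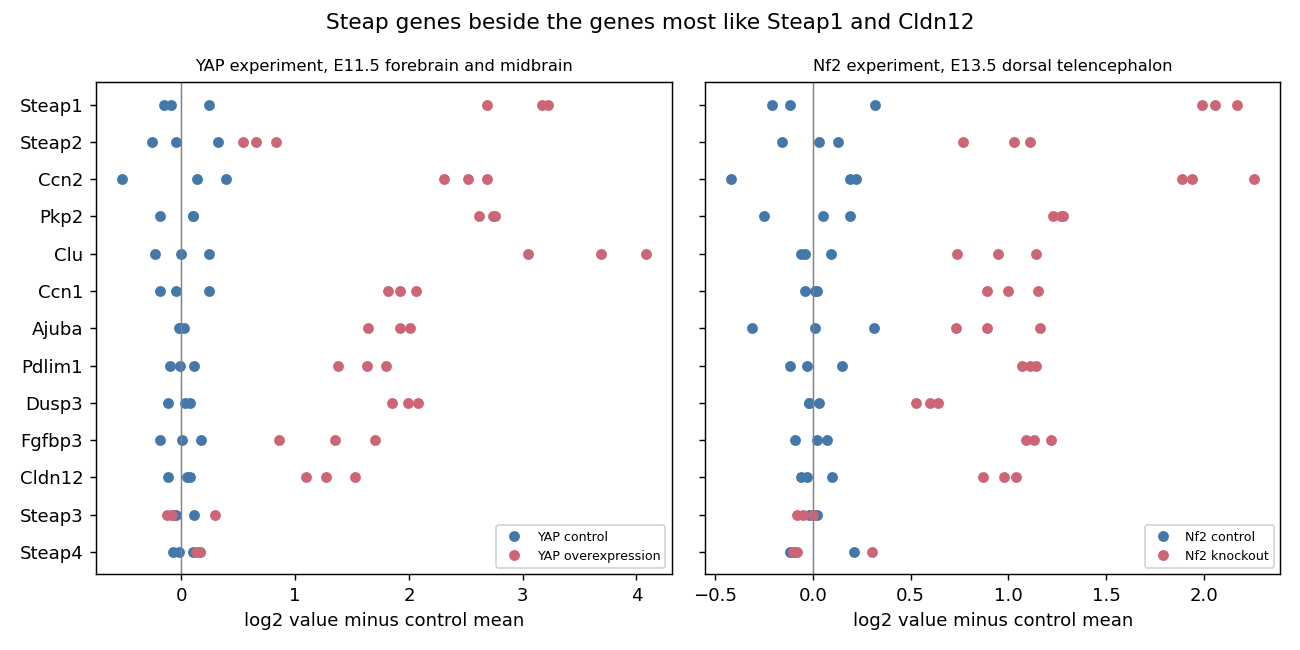
Log2 value minus the mean of the experiment's controls (horizontal axis) for the 4 Steap genes, the 8 genes most like Steap1 and Cldn12 (vertical axis), with YAP arrays on the left and Nf2 arrays on the right; each dot is an array, blue for controls and red for YAP overexpression or Nf2 knockout, and the horizontal scales of the panels differ. Steap1 arrays stand 2.69 to 3.22 and 1.99 to 2.17 above their control means, while the Steap3 and Steap4 dots of both groups lie around 0.

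Other genes of iron and copper handling were called at about the rate of all genes for YAP. Of 37 measured genes in 4 lists, limma called 1 higher and 1 lower with YAP overexpression (6.31% of all genes in either direction). It called 0 in Nf2 knockouts (0.252% of all genes), a share at which 0 calls among 37 genes say little. Limma's unadjusted p was under 0.05 for 7 (YAP) and 5 (Nf2) of the 37, beside 3353 and 1066 of all 17097 genes. The medians of the 37 were 0.01 and -0.01. Among the 7 other metal reductases, of the cytochrome b561 and Frrs1 groups, 0 were called in either experiment (unadjusted p under 0.05 for 1 in each). Cyb561, a reductase gene of secretory vesicles, had Nf2 knockouts at 4.25, 3.80 and 4.22, below controls at 4.75, 4.62 and 5.01 (-0.70, SE 0.16, limma adjusted p = 0.162), and it differed by 0.11 for YAP. The summed log2 level of the 7 reductases was 36.88 to 37.71 in Nf2 knockouts against 38.14 to 38.55 in controls, and overlapped for YAP. For Nf2, 3 of the 7 differed upward and their median was -0.09. Frrs1l was at -0.59 (SE 0.26, limma adjusted p = 0.238) and Cyb561d2 at 0.25 (limma adjusted p = 0.568) for YAP, and Frrs1 was at -0.28 (limma adjusted p = 0.922) for Nf2.

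Of 8 iron uptake genes, 0 were called (unadjusted p under 0.05 for 2 in the YAP and 1 in the Nf2 comparison). The transferrin receptor gene Tfrc differed by 0.23 (limma adjusted p = 0.338) and 0.08 (limma adjusted p = 0.98). The transferrin gene Trf differed by -0.39 (limma adjusted p = 0.207) and -0.50 (limma adjusted p = 0.555). The metal transporter gene Slc39a14 differed by 0.26 (limma adjusted p = 0.217) for YAP, and Slc25a37, a mitochondrial iron importer gene, by -0.25 (limma adjusted p = 0.857) for Nf2. Of 11 genes of iron storage, release and sensing, limma called 1 higher and 1 lower for YAP, and 0 for Nf2 (unadjusted p under 0.05 for 1). Cp, whose product ceruloplasmin oxidises iron as it leaves the cell, read 5.80, 5.51 and 5.28 with overexpression and 5.06, 4.94 and 4.73 in controls, and rose by 0.62 (SE 0.12, limma adjusted p = 0.0109). Slc40a1, which encodes the iron exporter ferroportin, read 6.31, 6.80 and 6.43 against 7.31, 7.12 and 7.20 and fell by 0.70 (SE 0.16, limma adjusted p = 0.0236). In the Nf2 experiment Cp differed by 0.19 and Slc40a1 by -0.20, and neither YAP minus Nf2 difference passed limma's test (adjusted p = 0.417 and 0.496). Hmox1, the haem oxygenase gene, was lower in Nf2 knockouts (-0.42, SE 0.08) but not called (limma adjusted p = 0.094). The ferritin genes Fth1 and Ftl1 differed by -0.12 and -0.04 for YAP and were not called.

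Neither call held in every alternative. Cp was not called without YAP control replicate 3 (0.53) with the mean over its probe sets (0.36) or with only the 6 YAP arrays (0.62), and its adjusted p ran from 0.00424 to 0.077 over the alternatives. Slc40a1 was not called without YAP control replicate 1 (-0.65), control replicate 3 (-0.70), overexpression replicate 1 (-0.59) or overexpression replicate 3 (-0.66), nor with the replicate block or the mean over its probe sets (-0.52), with adjusted p from 0.00923 to 0.0875. Of the 37 genes, 0 were called once YAP control replicate 3 was removed, 1 after removal of YAP control replicate 1 or of overexpression replicate 1 or 3, and 4 after removal of replicate 2 of either group.

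Of 11 copper handling genes, limma called 0 in either experiment (unadjusted p under 0.05 for 2 in each). Their median changes were 0.11 for YAP and 0.04 for Nf2. Their summed log2 level was 89.51 to 90.95 with YAP overexpression against 88.50 to 89.42, and 85.70 to 86.02 in Nf2 knockouts against 84.01 to 84.80. The sums did not overlap in either experiment, but only 6 of 11 genes differed upward for Nf2 (9 for YAP). The largest Nf2 differences of the list were those of the metallothionein genes below. Over all genes, groups did not overlap for 21.3% (YAP) and 12.7% (Nf2), shares of single genes and not of sums. Mt1, a metallothionein gene that binds copper and zinc, had Nf2 knockouts at 10.30, 10.51 and 10.52, above controls at 9.54, 9.47 and 9.66 (0.89, SE 0.20, limma adjusted p = 0.142). With YAP overexpression its groups overlapped (0.61, SE 0.20, limma adjusted p = 0.0918). The metallothionein gene Mt3 differed by 0.53 for Nf2 (limma adjusted p = 0.512), and Ccs, which encodes a copper chaperone, by 0.19 for YAP (limma adjusted p = 0.493). The copper importer gene Slc31a1 differed by 0.02 and -0.01.

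Markers of cell types moved beside these values in part, where limma called 2.67% of all genes higher and 3.64% lower for YAP. With YAP overexpression 3 of 3 neuronal markers fell (Tubb3, Stmn2 and Elavl4), their summed log2 level being 31.78 to 33.13 against 34.23 to 35.03 in controls, and 3 of 3 forebrain markers fell (Emx1, Emx2 and Lhx2; 25.00 to 25.28 against 26.50 to 27.64). Emx1 was not called without YAP control replicate 1 (-0.59) or 3 (-0.43), without overexpression replicate 1 (-0.53) or with only the 6 YAP arrays. Stmn2 was not called without YAP control replicate 2 (-0.62) or 3 (-0.47), without overexpression replicate 1 (-0.60) or 3 (-0.43), with the replicate block (adjusted p = 0.0876) or with only the 6 YAP arrays, and Tubb3 was not called with only those 6 arrays. Of 4 progenitor markers Vim rose (0.27, limma adjusted p = 0.0467) and Pax6 fell (-0.34, limma adjusted p = 0.013), with sums of 43.43 to 44.29 against 43.36 to 43.95. Vim was not called without YAP control replicate 1 (0.29), 2 (0.29) or 3 (0.23), without overexpression replicate 1 (0.26) or 2 (0.23), with the replicate block, with only the 6 YAP arrays, with the mean over probe sets (0.20) or without _x_at and _s_at probe sets. Pax6 was not called without YAP control replicate 1 (-0.30) or 3 (-0.32), with only the 6 YAP arrays or with the mean over probe sets (-0.26). Of 5 choroid plexus markers the folate receptor gene Folr1 rose (1.50, limma adjusted p = 9.17e-05), with sums of 35.14 to 36.52 against 33.33 to 36.05. Limma called 0 of 6 macrophage, 0 of 5 erythroid, 0 of 5 endothelial, 0 of 6 mesenchymal, 0 of 4 midbrain and 0 of 5 surface epithelial markers there (unadjusted p under 0.05 for 0, 1, 0, 2, 0 and 0). Over all genes, limma's unadjusted p was under 0.05 for 3353 of 17097 with YAP overexpression.

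In Nf2 knockouts limma called 0 markers of any of these lists (unadjusted p under 0.05 for 2 progenitor, 3 erythroid, 2 macrophage, 2 endothelial and 1 mesenchymal markers). Over all genes, limma's unadjusted p was under 0.05 for 1066 of 17097 in this comparison. Only 0.252% of all genes were called there, so the lack of calls in such short lists says little about the markers. The erythroid sum was lower in knockouts (42.82 to 43.59 against 44.67 to 45.99), and the macrophage sum higher (29.83 to 30.74 against 28.25 to 29.29). The progenitor sum was higher (39.31 to 39.68 against 38.69 to 38.80). The mesenchymal sum was lower (37.00 to 38.74 against 38.90 to 39.47), though 3 of 6 of its markers were not. The neuronal sum was lower (31.46 to 31.73 against 31.74 to 32.08), with the groups nearly touching. Over all genes, the Nf2 groups did not overlap for 12.7%. That share is for single genes, and none was computed for sums. The sums of the other lists overlapped between the Nf2 groups. No marker is at 0 on this log2 scale. The part of these cell types in the Steap values was not tested.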

How the data were processed

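The authors deposited 1 table of log2 intensities per probe set, to 2 decimals. Per the labels, biotin-labelled cRNA was made from 100 ng of total RNA with a 3' IVT kit. Per the submitters' processing notes, RMA, Affymetrix Expression Console 1.1 and Partek 6.5 were used, with no role given. RMA draws low values together, so changes of dim probe sets can be understated. The 2 experiments differed in their array medians, as if normalized separately.

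Names came from the 2016 platform table, updated by Entrez ID (28689 of 28898 single-gene probe sets). Of several probe sets, the one brightest on average stood for the gene (17097 genes). Limma 3.58.1 in R 4.3.3 fitted 4 group means to all 12 arrays, with two-sided p-values, Benjamini-Hochberg adjustment across the 17097 genes and calls at an adjusted p under 0.05. Standard errors of probe sets came from the same model over 28898 probe sets, and the pipeline was tested on simulated data. The members and lists were chosen with earlier results of these data known. Named genes were the Steap genes, list genes or neighbours called in either experiment, the 2 with the largest difference in a list with fewer than 2 calls, the 8 genes most like Steap1, Yap1, Nf2, Ccn1, Ccn2 and called markers. Tfrc, Fth1, Ftl1, Slc31a1, the tissue check genes and the other genes beside Cldn12 were added after their values were seen. Residuals of same-numbered arrays correlated at 0.271, 0.212 and 0.207 in the Nf2 experiment, and differently numbered ones at -0.000108 at most. The YAP arrays showed no such pattern, but a differently numbered pair there reached 0.304. The sample titles give only replicate numbers, so whether these pair the Nf2 samples is not settled. Alternatives covered normalization, arrays fitted, the replicate block, probe set choice, a filter on dim genes and leaving out each array. Protein sequences were not used here.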

Additional observations from a re-analysis of the deposited data

How the results depend on the processing

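Steap1 and Steap2 were higher than control in both experiments under all 13 alternatives run for each. Leaving out 1 array at a time gave 2.93 to 3.19 (YAP) and 1.97 to 2.24 (Nf2) for Steap1, and 0.54 to 0.83 and 0.89 to 1.07 for Steap2. With the mean over probe sets, Steap1 moved to 2.48 for YAP and Steap2 to 0.43 for YAP and 0.52 for Nf2, and without _x_at and _s_at probe sets Steap1 moved to 1.93 for YAP. Steap3 and Steap4 had no value once dim genes were left out. Over all genes, 1078 were called for YAP, 361 with only its 6 arrays, 689 with a replicate block and 529 to 1241 with 1 array left out. For Nf2 the counts were 43, 25, 21 and 20 to 32. Iron and copper genes numbered 2 for YAP, 1 with dim genes left out, with only the 6 arrays or with a replicate block, 0 with the mean over probe sets and 0 to 4 with 1 array left out, and for Nf2 they numbered 0, or 1 with only the 6 arrays. Neighbours numbered 2 for YAP, 1 with only the 6 arrays or a replicate block and 1 to 3 with 1 array left out. Residuals of same-numbered YAP arrays correlated at 0.0971, -0.195 and -0.204, which gave no sign of a pairing by number, and not every array correlated best with its own. The replicate block changed no call of a Steap gene or of Cldn12. The cause of these shifts was not tested beyond the fewer samples or genes of each setting. Dim signal limits what can be said of Steap3, Steap4 and the fourth Steap2 probe set.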
